A study of Phaseolus vulgaris and Phaseolus lunatus with 12 samples.

Results

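The auxin response factors and the early auxin genes of 2 bean species were followed in leaves with and without spider mites. Response factors were taken as the genes that carry the domain family Auxin_resp in the deposited count tables, 27 in *Phaseolus lunatus* (lima bean) and 26 in *Phaseolus vulgaris* (common bean). Early auxin genes were the 135 *P. lunatus* genes whose product name holds "Auxin-responsive protein", "Auxin-induced protein" or "SAUR", and by those names they fall into 28 Aux/IAA and 107 SAUR genes. These are 188 members among 73321 genes in both tables, 162 of 43997 in *P. lunatus* and 26 of 29324 in *P. vulgaris*. The rule itself uses annotation and no measured value, but the members and lists were chosen with earlier results of these data known. The *P. vulgaris* table gives a product name to few genes, so its early genes were followed only through the domain family Auxin_inducible.

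Leaf RNA was sequenced from infested *P. lunatus* var. Peladilla, control *P. lunatus*, infested *P. vulgaris* cultivar California Red Kidney and control *P. vulgaris*, with 3 libraries in each of the 4 groups. Infested leaves had been detached and given 50 adult females of *Tetranychus urticae* (London strain, reared on *P. vulgaris*) per leaflet, and control leaves had been detached and left without mites. All were first true leaves of plants grown for 3 weeks at 23 °C under 16 h of light, collected at 24 h, so detachment is common to every group. The series asks how the responses of these species to the mite differ, and its labels leave unsaid whether the replicates are separate plants. The p-values then measure only the spread between libraries, which may be technical.

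Auxin is the plant hormone of growth and patterning. At low auxin, Aux/IAA proteins bind auxin response factors (ARFs) at the promoters of target genes and keep them silent. Auxin joins F-box receptors of the TIR1/AFB group to Aux/IAA proteins, which are then degraded, and the ARFs are freed to act. Aux/IAA, SAUR and GH3 genes are the classical early targets. SAUR (small auxin up RNA) proteins promote cell expansion by acid growth, and GH3 enzymes conjugate auxin to amino acids. In Arabidopsis, ARF5, ARF6, ARF8 and ARF19 act mostly as activators and many other ARFs mostly as repressors. No sequence is shown, because 0 of the 188 member IDs matched the reference table at hand.

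Total counts ran from 13317991 to 14917398 in infested and from 13936596 to 17255676 in control *P. lunatus*, and from 17264823 to 18425798 in infested and from 17283298 to 19343807 in control *P. vulgaris*. Leaf identity was checked in *P. lunatus* with 23 genes of Rubisco small subunit and chlorophyll a-b binding proteins. They summed to 15757 to 33486 CPM (counts per 1 M counts of the scaled library) in infested and 41267 to 55021 CPM in control libraries. All 23 had a log2 fold change below 0 and 13 passed the test as lower. Of all tested *P. lunatus* genes 17.1% were called, 9.65% as higher and 7.46% as lower. Fewer cells of a type and less RNA per cell cannot be told apart in whole leaves. Of the other marker lists, 14 tested xylem genes had 6 higher and 0 lower (sums of 446 to 512 CPM in infested and 263 to 383 in control libraries), and 15 tested phloem genes had 0 called (541 to 659 and 617 to 654 CPM). Among 28 tested genes of the dividing-cell list 1 was higher (368 to 436 and 339 to 365 CPM). The name search put a calcyclin-binding protein in that list, and its entry named only Histone H4 was at 0 counts. The 9 tested guard-cell genes had 0 called (42.4 to 47.7 and 44.1 to 53.3 CPM), with 8 of 21 listed at 0 counts. Clock genes, listed as a check on collection time, had 6 of 23 lower and 0 higher (1293 to 1541 and 1649 to 2112 CPM). Only 1 of the 23 had a log2 fold change above 0, and their median was −0.35. The part of these lists in the results below was not tested. In *P. vulgaris*, 5 genes whose product name starts with Photosystem, chosen after the names had been seen, summed to 3077 to 4670 CPM in infested and 3607 to 5087 CPM in control leaves, and 0 of 4 tested were called. Of all genes tested in that species 0.976% were called.

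The counts behind the members differed by class. They are not adjusted for gene length, whose median was 315 bases in SAUR genes, 1340 in Aux/IAA genes and 3204 in *P. lunatus* response factors. Of the 27 *P. lunatus* response factors 26 had enough counts to be tested, as did 25 of 26 in *P. vulgaris*, 21 of 28 Aux/IAA genes and 15 of 107 SAUR genes. The response factor left out in *P. lunatus* had 5 counts over all 6 libraries, and the one left out in *P. vulgaris* (PHAVU_001G202000g) had 0. The 7 untested Aux/IAA genes had 0 to 38 counts, with IAA20 and IAA33 at 0. The 92 untested SAUR genes had 0 to 58 counts, and 22 of them had 0 in all libraries. Most of the SAUR class thus had too few counts to compare. Whether reads shared between similar SAUR copies were left out of the counts was not tested.

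**Figure D1:**
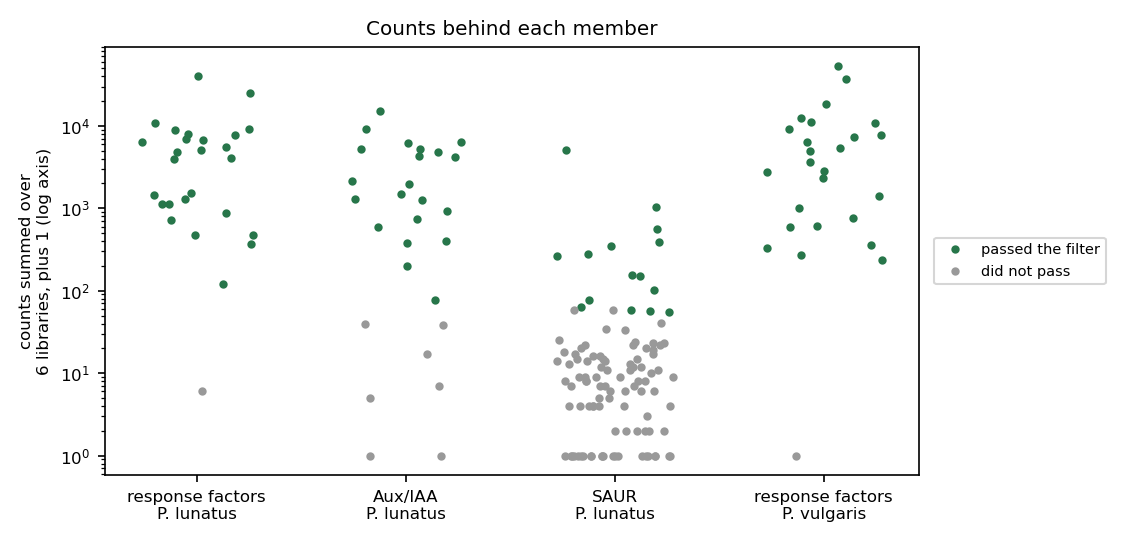
Counts summed over the 6 libraries of the species, plus 1, on a log axis, for each member (1 point each, spread sideways only to keep them apart), by class and species. Green points passed the filter on low counts and grey points did not: 92 of 107 SAUR genes are grey, against 1 of 27 response factors in *P. lunatus* and 1 of 26 in *P. vulgaris*.

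Levels of different genes are compared as CPM per kilobase of the deposited gene length, averaged over 6 libraries. The tested *P. lunatus* response factors had a median of 16.4 CPM per kilobase, and the lowest, named Auxin response factor 22 (Pl07G0000106500.v1), averaged 0.519. Well above the median stood a gene named Auxin response factor 9 (Pl06G0000229300.v1) at 40.1, one named 18 (Pl05G0000244600.v1) at 38.0, one named 1 (Pl06G0000342700.v1) at 30.8 and a second named 9 (Pl10G0000063400.v1) at 27.8. In the order of levels, the control ranges of 16 of 25 neighbouring pairs overlapped. In control leaves the named 9 at 40.1 had a range of 30.6 to 35.0 CPM per kilobase, and the named 18 was higher there, with 40 to 49.7.

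The *P. vulgaris* response factors were led by a pair of genes. PHAVU_002G282200g (chromosome 2, 44603605 to 44608648) averaged 131 CPM per kilobase and PHAVU_009G161900g (chromosome 9, 23557877 to 23563227) averaged 93.5. They held 44.1% to 45.5% of response factor CPM in each library. Next came PHAVU_010G011600g at 55.4, and none of these 3 overlapped its neighbour in control leaves. The remaining range went down to 0.615, with a median of 10.3 over the 25 tested, and 16 of 24 neighbouring pairs overlapped. The tables share no gene IDs, so counterparts between the species were not determined.

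**Figure D2:**
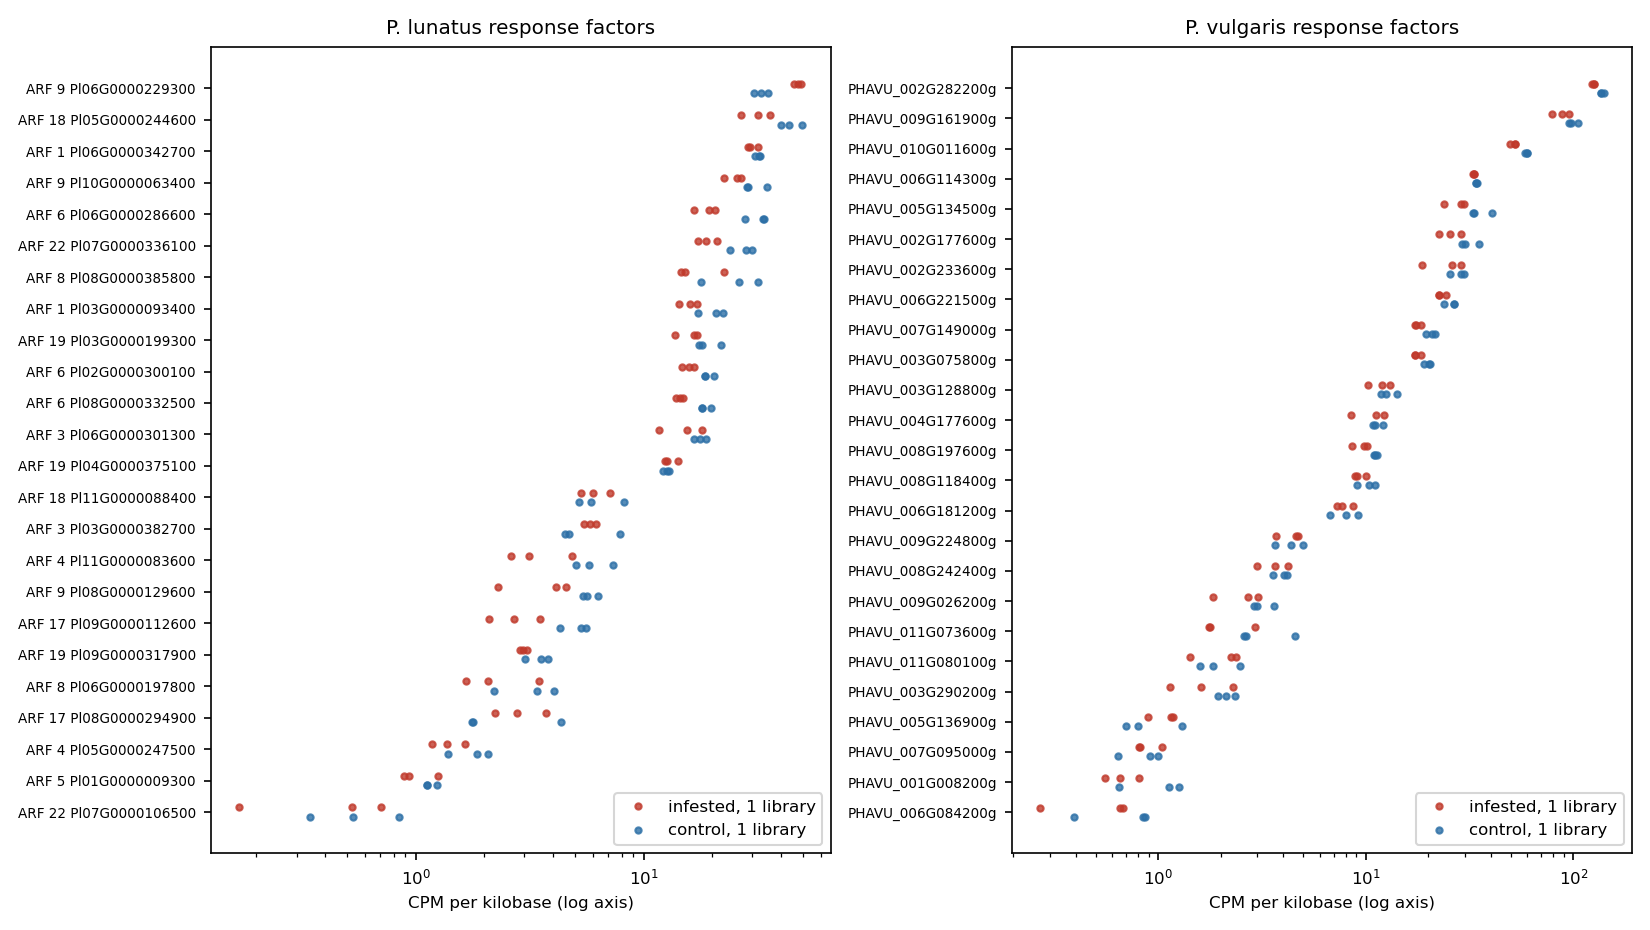
CPM per kilobase (log axis) in each library of 24 of the 26 tested response factors of *P. lunatus* (left) and of all 25 of *P. vulgaris* (right), infested in red above control in blue, ordered by mean level. The 2 highest genes of *P. vulgaris* average 131 and 93.5 and stand apart from the rest.

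The first comparison asks which of these genes changed in infested *P. lunatus* leaves. Of 26 tested response factors, 5 fell and 1 rose. Members with products named Auxin response factor 6 (2 genes), 17, 18 and 22 were lower, and 1 of the 3 genes named Auxin response factor 9 was higher. Over all genes tested in this species 17.1% were called, 7.46% as lower and 9.65% as higher, and 23.1% of the response factors were called. Calls needed an adjusted p under 0.05 (edgeR's quasi-likelihood F test, Benjamini-Hochberg over all 18523 genes tested). Each log2 fold change is infested over control, with 3 libraries on each side, and is followed by the standard error that its F statistic gives.

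The tilt downwards reached past the called genes. Of the 26 tested response factors 22 had a log2 fold change below 0, and their median was −0.30, beside −0.01 for all genes tested. An unadjusted p below 0.05 was found for 13 of 26, where 32.5% of all tested genes had one. In 13 of 26 every infested library lay below every control library, where 18.1% of all tested genes did so. In 1 every infested library lay above, where 19.7% of all genes did. Summed over the 27 response factors, the 3 infested libraries had 1762, 1718 and 1530 CPM and the 3 control libraries 1978, 2054 and 2147 CPM. The infested libraries were all below the control libraries.

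Auxin response factor 6 is, in Arabidopsis, an activator of flower and stem growth that a microRNA also restrains. The 3 genes of that name differed in size of change. Pl06G0000286600.v1 (chromosome 6, 32365945 to 32373572) had 93.5, 99.2 and 80.4 CPM in infested leaves, against 162, 163 and 135 CPM in control leaves. The groups were far apart, and the fall of −0.75 ± 0.13 (adjusted p = 0.00643) was kept whichever library was left out (highest adjusted p 0.0331). Pl08G0000332500.v1 (chromosome 8, 48395582 to 48402944) had 42.2, 39.4 and 40.9 CPM in infested leaves, against 56.1, 51.4 and 50.95 CPM in control leaves. Its libraries were tight within each group and the fall was smaller, −0.37 ± 0.09 (adjusted p = 0.0290). It was no longer called when infested library 2 (adjusted p = 0.116) or 3 (0.103) or control library 1 (0.0648), 2 (0.0613) or 3 (0.0545) was left out. The third gene, Pl02G0000300100.v1, had a log2 fold change of −0.28 ± 0.10 (adjusted p = 0.0826, and 0.0481 under upper-quartile factors), with infested libraries all below control libraries.

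Auxin response factor 17, in Arabidopsis a repressor targeted by a microRNA, gave the lowest log2 fold change of any response factor. Pl09G0000112600.v1 (chromosome 9, 10176573 to 10179937) had 5.67, 7.38 and 4.37 CPM in infested leaves, against 11.1, 9.04 and 11.7 CPM in control leaves. The groups did not overlap, and the change was −0.87 ± 0.23 (adjusted p = 0.0349). The second gene of that name, Pl08G0000294900.v1, had 0.14 ± 0.39, overlapping groups and values below 0 without infested library 3 or control library 2 or 3.

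The names Auxin response factor 18 and 22 are taken from rice proteins. Pl05G0000244600.v1, named 18 (chromosome 5, 33740271 to 33743785), had 101, 89.1 and 75.3 CPM in infested leaves, against 112, 122 and 139 CPM in control leaves. It fell by 0.49 on the log2 scale (SE 0.14, adjusted p = 0.0421). Pl07G0000336100.v1, named 22 (chromosome 7, 41419379 to 41422424), had 51.2, 57.0 and 46.9 CPM in infested leaves, against 81.2, 64.8 and 76.4 CPM in control leaves. It fell by 0.52 (SE 0.12, adjusted p = 0.0236). The ranges of both genes were apart. These calls and that of the named 17 were not kept in every fit that left out a library. They were kept in 2 of 6 such fits for the named 18, 3 for the named 22 and 2 for the named 17. The log2 fold changes in those fits ran from −0.60 to −0.39, from −0.61 to −0.45 and from −1.08 to −0.70, in that order. Without infested library 3 the adjusted p was 0.154 for the named 18, 0.106 for the named 22 and 0.116 for the named 17, and without control library 3 it was 0.124, 0.0662 and 0.103. The call for the named 18 also ended without infested library 2 (adjusted p = 0.124) and control library 2 (0.0861), that for the named 22 without control library 1 (0.0534), and that for the named 17 without infested library 1 (0.0684) and control library 1 (0.0716).

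The response factor that rose was Pl06G0000229300.v1, named Auxin response factor 9 (chromosome 6, 27466043 to 27470637), whose Arabidopsis namesake is placed among the repressors. It had 123, 126 and 118 CPM in infested leaves, against 78.7, 83.7 and 90.1 CPM in control leaves. All infested libraries were higher and close together, with a rise of 0.54 ± 0.10 (adjusted p = 0.00920), kept whichever library was left out (highest adjusted p 0.0488). The other genes named 9 had values on the other side of 0: Pl10G0000063400.v1 had −0.29 ± 0.12 (adjusted p = 0.135) and Pl08G0000129600.v1 had −0.66 ± 0.24 (adjusted p = 0.0975).

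**Figure D3:**
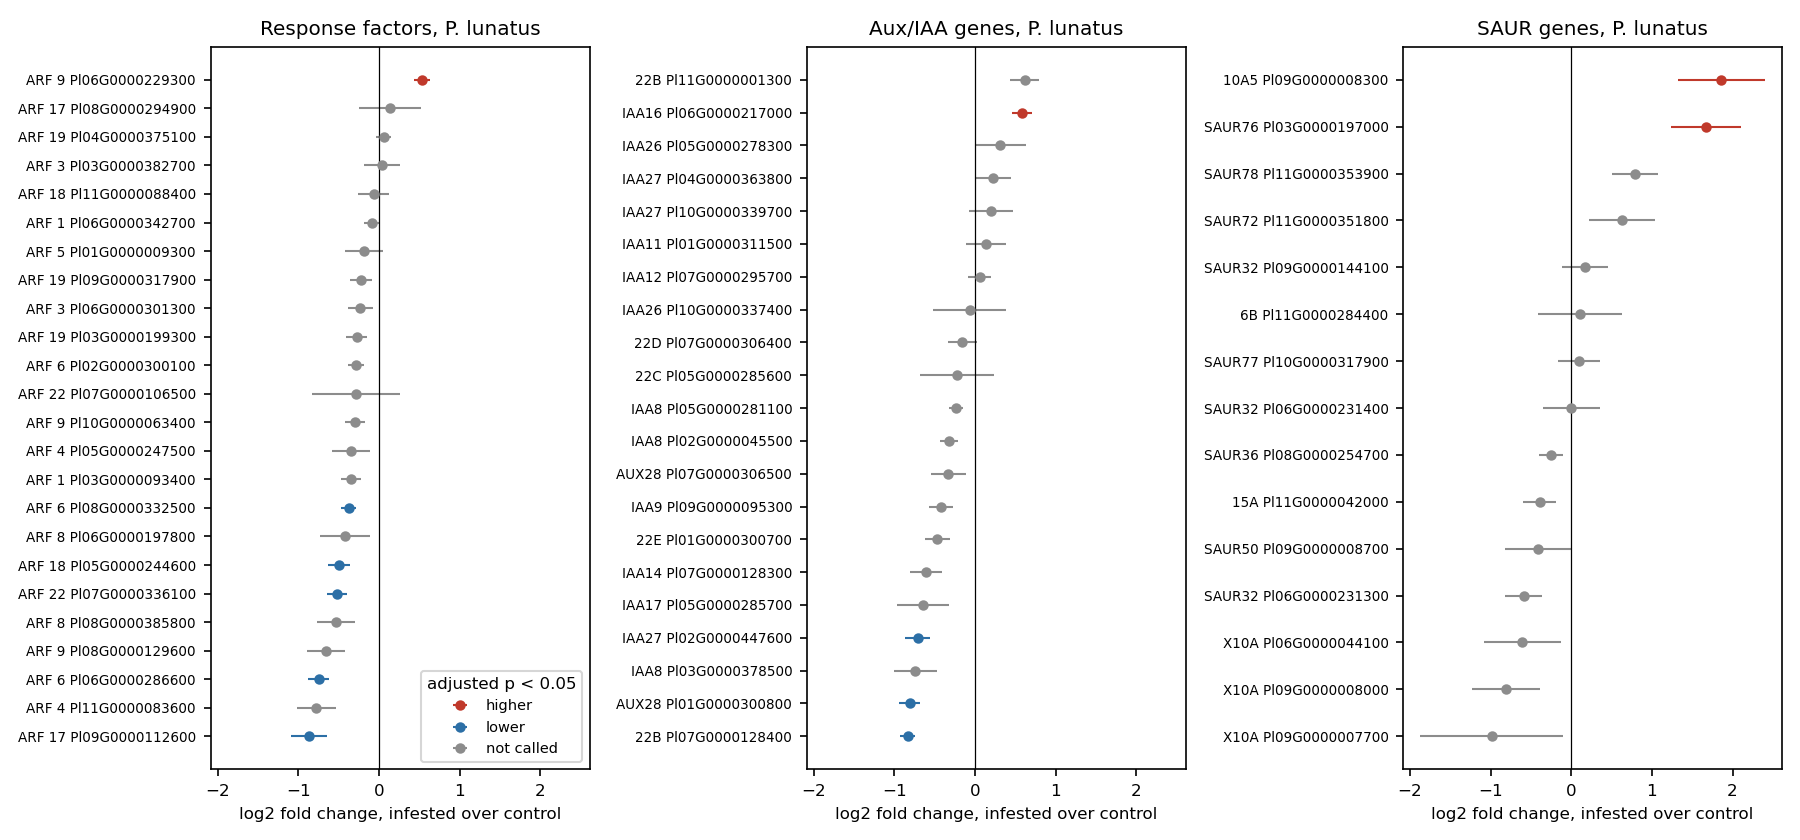
Log2 fold change, infested over control, with its standard error, of 24 of the 26 tested *P. lunatus* response factors and of every tested Aux/IAA and SAUR gene; each row is 1 gene. Of the 24 response factors drawn 20 lie left of 0, with 5 called lower (blue) and 1 called higher (red); of 21 Aux/IAA genes 14 lie left of 0, and the 15 SAUR genes spread to both sides.

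Other response factors at high levels did not pass the test. Auxin response factor 1 (Pl06G0000342700.v1) had 82.1, 90.3 and 83.3 CPM in infested leaves, against 91.8, 92.5 and 87.5 CPM in control leaves. Its groups overlapped, with −0.09 ± 0.09 (adjusted p = 0.568).

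Domain content and name divided the response factors without a clear division of response. The Aux/IAA family domain, through which ARFs and Aux/IAA proteins pair, was annotated in 16 of 27. Of these 16, 2 fell and 1 rose, with a median of −0.33. Of the 11 without it 10 were tested, 3 fell and 0 rose, with a median of −0.28. The 9 genes named after the Arabidopsis or rice factors 5, 6, 8 or 19 had 2 lower and 0 higher, with a median of −0.28. The 17 tested genes of other names had 3 lower and 1 higher, with a median of −0.31. Neither difference was tested. No response factor of either species lay within 100 kb of another.

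Aux/IAA genes, the repressors that pair with ARFs, had 3 of 21 tested members lower and 1 higher, 19% called against 17.1% of all genes tested. Their median log2 fold change was −0.24. In 9 of 21 every infested library lay below every control library, where 18.1% of all tested genes did so, and in 2 above, where 19.7% did. Summed over the class, infested libraries had 798, 632 and 754 CPM and control libraries 914, 935 and 941 CPM, so the infested libraries were all lower.

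Pl07G0000128400.v1, named Auxin-induced protein 22B after a mung bean Aux/IAA gene (chromosome 7, 12548816 to 12550798), had 53.3, 47.3 and 50.8 CPM in infested leaves. Control leaves had 94.1, 86.9 and 89.4 CPM. The spread within groups was small, and the fall of −0.84 ± 0.10 (adjusted p = 0.00119) was kept whichever library was left out (highest adjusted p 0.0117). Pl01G0000300800.v1, named after soybean AUX28 (chromosome 1, 36947168 to 36949859), had 41.3, 33.2 and 43.9 CPM in infested leaves, against 66.4, 77.0 and 64.1 CPM in control leaves. Its fall of −0.81 ± 0.13 (adjusted p = 0.00573) was likewise kept in each such fit. One of 3 tested genes named IAA27 (Pl02G0000447600.v1, chromosome 2, 49966875 to 49969782) had 13.4, 10.2 and 10.1 CPM in infested leaves, against 17.4, 18.1 and 19.7 CPM in control leaves. It fell by 0.71 (SE 0.15, adjusted p = 0.0161), and was no longer called with infested library 2 (adjusted p = 0.0706), infested library 3 (0.0733) or control library 3 (0.0566) left out. The other two IAA27 genes had overlapping groups, at 0.23 ± 0.22 (Pl04G0000363800.v1) and 0.20 ± 0.27 (Pl10G0000339700.v1), and did not pass.

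IAA16 (Pl06G0000217000.v1, chromosome 6, 26399686 to 26401960) moved the other way. It had 70.4, 70.9 and 75.7 CPM in infested leaves, against 54.7, 40.6 and 49.3 CPM in control leaves. The rise of 0.58 ± 0.12 (adjusted p = 0.0156) was no longer called with infested library 2 (adjusted p = 0.0548) or infested library 3 (0.0695) left out. A second gene named 22B (Pl11G0000001300.v1) also had infested libraries above all control libraries, at 0.61 ± 0.18, and did not pass (adjusted p = 0.0528). It was called under DESeq2 (adjusted p = 0.0343), with no filter on low counts (0.0456) and under library totals without the 20 most counted genes (0.04998). The 2 genes named 22B thus had log2 fold changes of −0.84 and 0.61.

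By level the class was led by IAA14 (Pl07G0000128300.v1), whose Arabidopsis namesake acts in lateral root formation, at 134 CPM per kilobase. It had 178, 98.3 and 144 CPM in infested leaves, against 194, 219 and 225 CPM in control leaves. The infested libraries spread widely, and the change of −0.60 ± 0.20 did not pass (adjusted p = 0.0733). It was called without infested library 1 (adjusted p = 0.0192), under DESeq2 (0.0254) and under library totals (0.0484). The next in level was a second AUX28 (Pl07G0000306500.v1) at 77.3 CPM per kilobase, with overlapping groups (−0.33 ± 0.22, adjusted p = 0.334). IAA16, the AUX28 on chromosome 1, IAA9 (Pl09G0000095300.v1) and the called 22B followed at 73.1, 70.2, 45.5 and 43.9. IAA9 had a log2 fold change of −0.42 ± 0.15 (adjusted p = 0.0946), and it was called without control library 3 (adjusted p = 0.0426). In control leaves 13 of 20 neighbouring pairs of this order overlapped.

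Of the 28 Aux/IAA genes 8 lay in 4 pairs of neighbours within 100 kb. Each pair is set out in order of position. On chromosome 7, IAA14 and the called 22B stood 53572 bases apart on opposite strands, with log2 fold changes of −0.60 and −0.84. Further along, 22D (Pl07G0000306400.v1) and AUX28 stood 19451 bases apart, at −0.16 and −0.33. On chromosome 1, 22E (Pl01G0000300700.v1) and the called AUX28 stood 13255 bases apart, at −0.47 and −0.81. On chromosome 5, 22C (Pl05G0000285600.v1) and IAA17 (Pl05G0000285700.v1) stood 7170 bases apart, at −0.22 and −0.64. All 8 values were below 0, and 2 of the 8 genes were called. Of all 21 tested Aux/IAA genes 7 were above 0 and 19% were called, where 17.1% of all tested genes were called. The value of 22C was above 0 without infested library 2 (0.10) or control library 1 (0.06), and that of 22D without control library 3 (0.04). Without that library 22E was called (adjusted p = 0.0424).

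**Figure D4:**
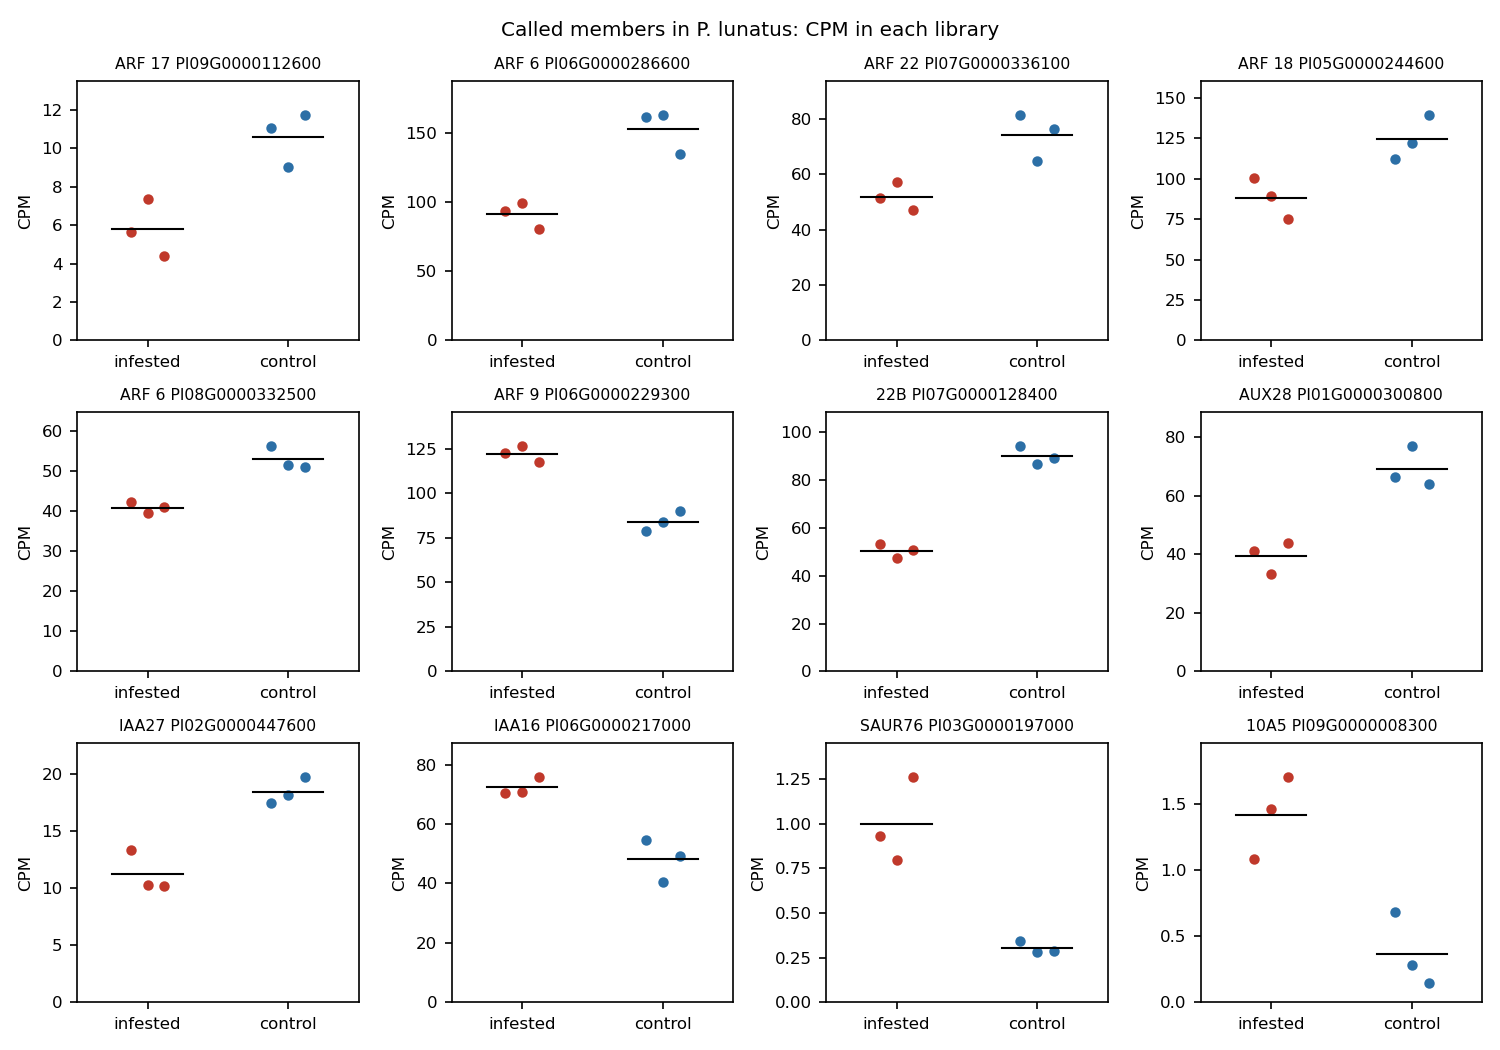
CPM in each of the 3 infested (red) and 3 control (blue) *P. lunatus* libraries for the 12 called members, 1 panel each with an axis from 0; black lines are group means. No panel has overlapping groups; the 2 SAUR genes lie below 2 CPM.

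SAUR genes mostly had few or no counts in these leaves. Of 107, 85 had any count and 15 were tested. The largest contributor was SAUR36 (Pl08G0000254700.v1), at 38.1 CPM per kilobase, with 49.0% to 60.1% of all SAUR CPM in each library. In Arabidopsis SAUR36 is linked to auxin-driven leaf senescence. It had 56.8, 50.4 and 52.7 CPM in infested leaves, against 52.5, 59.7 and 77.8 CPM in control leaves, and the groups overlapped (−0.25 ± 0.15, adjusted p = 0.293). A gene named SAUR32 (Pl06G0000231300.v1) came next at 33.98 CPM per kilobase, with −0.59 ± 0.23 (adjusted p = 0.116). Further SAUR32 genes (Pl09G0000144100.v1, 21.9, and Pl06G0000231400.v1, 9.94), 15A (Pl11G0000042000.v1, 7.98) and SAUR50 (Pl09G0000008700.v1, 5.45) followed. Summed over the class, infested libraries had 104, 94.1 and 108 CPM and control libraries 105, 115 and 129 CPM, so the groups overlapped.

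The called SAUR genes were 2, both higher, or 13.3% of the 15 tested, where 17.1% of all tested genes were called and 9.65% were higher. SAUR76 (Pl03G0000197000.v1, chromosome 3, 24307205 to 24308840) had 12, 12 and 17 counts in infested leaves, against 6, 4 and 4 in control leaves. Its log2 fold change was 1.67 ± 0.43 (adjusted p = 0.0336), and it was called in 0 of the 6 fits that left out a library (adjusted p of 0.0722 to 0.146). A gene named 10A5 after a soybean SAUR (Pl09G0000008300.v1, chromosome 9, 563944 to 564240) had 14, 22 and 23 counts in infested leaves, against 12, 4 and 2 in control leaves. Its log2 fold change was 1.86 ± 0.54 (adjusted p = 0.0480), and it was called in 1 of those 6 fits, that without control library 1 (adjusted p of 0.0652 to 0.171 in the others). Both genes passed the filter only through the infested group, so their calls are no measure of how often SAUR genes changed. The median over the 15 tested was 0.00, with 8 above 0.

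Most SAUR genes sat in clusters. Of 107, 54 lay on chromosome 11 and 85 had another member within 100 kb. The largest block held 29 SAUR genes on chromosome 11 between 3108894 and 3222446. Those 29 genes together had 874 counts over 6 libraries, and 1 of them was tested. A block of 10 lay on chromosome 9 between 533724 and 575484, with 476 counts and 4 tested, the called 10A5 among them. Further blocks of 11 and 9 lay on chromosome 11, with 120 and 81 counts. Such neighbours may be near-identical copies, and the counting of shared reads is not stated, so single genes of these blocks are uncertain. The SAUR domain was annotated in 49 of 107, of which 9 were tested, and the 58 without a domain had 6 tested. The median deposited length over all 107 was 315 bases.

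The same comparison in *P. vulgaris* gave no called response factor. Of 25 tested 0 passed edgeR's quasi-likelihood test and 0 passed DESeq2, and 5 had an unadjusted p below 0.05, where 10.5% of all tested genes had one. In this species 0.976% of all 19360 tested genes were called, 0.935% as higher and 0.0413% as lower, so few calls would be found in a list of this size. The log2 fold changes ran from −0.59 to 0.20 with a median of −0.17, beside −0.0028 for all genes, and 21 of 25 were below 0. In 8 of 25 every infested library lay below every control library, where 7.95% of all tested genes did so, and in 0 above, where 9.09% did. Summed over the 26 genes, infested libraries had 1639, 1765 and 1829 CPM and control libraries 1929, 1960 and 2029 CPM. As in *P. lunatus*, no infested library reached the lowest control library.

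The smallest p among *P. vulgaris* response factors belonged to PHAVU_005G134500g (chromosome 5, 36164182 to 36167531). It had 64.0, 77.7 and 79.8 CPM in infested leaves, against 89.4, 88.8 and 109 CPM in control leaves, a log2 fold change of −0.37 ± 0.12 (adjusted p = 0.277). PHAVU_010G011600g had 160, 159 and 152 CPM in infested leaves, against 183, 183 and 180 CPM in control leaves. The libraries of each group were close together and the change was small, −0.21 ± 0.08 (adjusted p = 0.356). PHAVU_007G149000g had 66.1, 62.4 and 61.9 CPM in infested leaves, against 74.7, 69.8 and 77.0 CPM in control leaves (−0.22 ± 0.08, adjusted p = 0.376). None of these has a product name in the table.

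The leaders in level did not pass the test. PHAVU_002G282200g had 456, 467 and 466 CPM in infested leaves, against 522, 506 and 506 CPM in control leaves, at −0.14 ± 0.08 (adjusted p = 0.606). PHAVU_009G161900g had 290, 323 and 352 CPM in infested leaves, against 349, 360 and 389 CPM in control leaves, and its groups overlapped (−0.19 ± 0.10, adjusted p = 0.557). PHAVU_006G114300g and PHAVU_002G177600g, also among the 6 highest, had −0.05 ± 0.07 and −0.29 ± 0.11. The response factor named as similar to rice Auxin response factor 1 (PHAVU_003G128800g) had −0.13 ± 0.11 (adjusted p = 0.738).

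**Figure D5:**
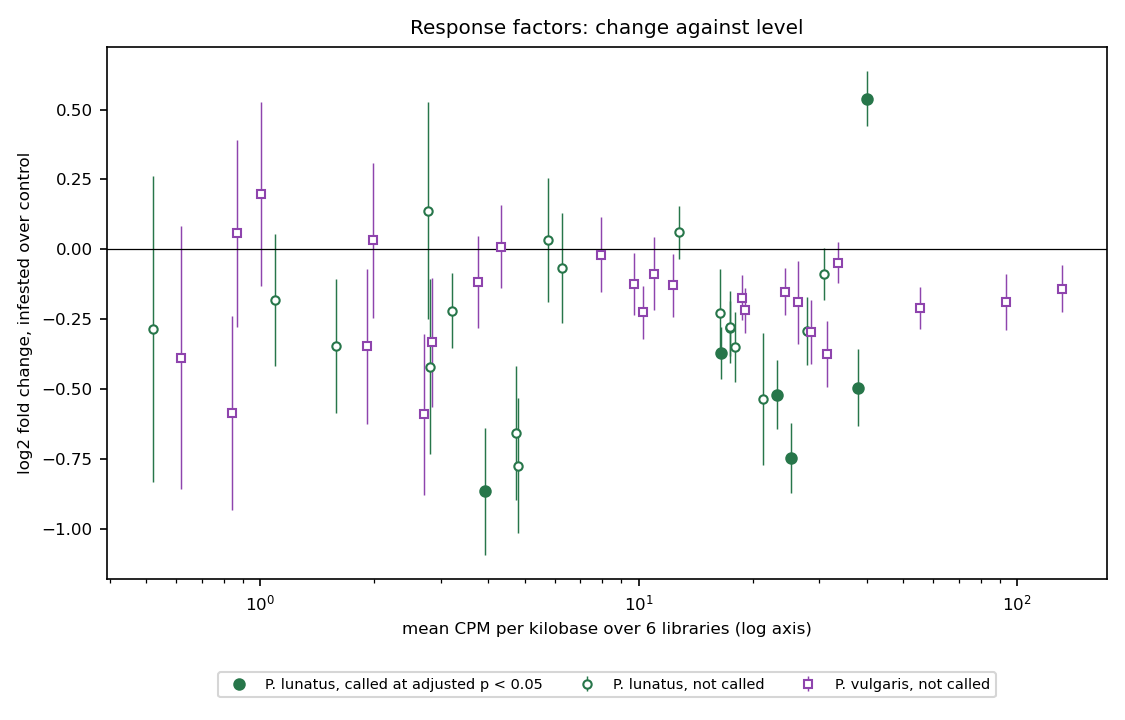
Log2 fold change with its standard error against mean CPM per kilobase over 6 libraries (log axis), for 24 of the 26 tested response factors of *P. lunatus* (circles) and all 25 of *P. vulgaris* (squares); filled symbols are called. In *P. lunatus* 20 of the 24 drawn lie below 0, and in *P. vulgaris* 21 of 25.

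With no map of orthologs, single genes could not be paired between the species, and whether the response factors of one species fell further than those of the other was not tested. Early genes of *P. vulgaris* could be followed through the domain family Auxin_inducible, which marks SAUR proteins. Of 60 such genes 44 had counts and 17 were tested. By edgeR 0 were called, 0 also at an unadjusted p below 0.05, and their median was 0.10. The same family in *P. lunatus* had 63 genes, 50 with counts and 14 tested, of which 1 was higher and 0 lower, with a median of 0.05. That is 7.14% called, where 17.1% of all tested *P. lunatus* genes were. The called gene was again SAUR76, which passed the filter only through the infested group. This share is thus no measure of how often genes of the family changed. In each species most of the family was too low to test.

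The rest of the auxin pathway in *P. lunatus* was listed by product name. Of the 5 receptors of the TIR1/AFB group 0 were called by edgeR, where 17.1% of all tested genes were, and 3 had an unadjusted p below 0.05, where 32.5% of all did. Their log2 fold changes ran from −0.40 to 0.33. Of 18 tested transport genes 2 rose and 1 fell, 16.7% called, which is near the 17.1% of all tested genes. PIN-LIKES proteins are auxin carriers of the endoplasmic reticulum. PIN-LIKES 3 (Pl03G0000361600.v1) had 6.21, 15.02 and 15.04 CPM in infested leaves, against 0.685, 1.19 and 0.0724 CPM in control leaves (4.19 ± 0.61, adjusted p = 0.00357). Like the called SAUR genes, PIN-LIKES 3 passed the filter only through the infested group. Its call is thus no measure of how often transport genes changed. PIN-LIKES 6 (Pl08G0000086400.v1) averaged 93.4 ± 16.8 CPM in infested and 53.4 ± 15.9 CPM in control leaves (SD, n = 3 each). It rose by 0.81 ± 0.22 (adjusted p = 0.0394), and lost its call with infested library 2 (adjusted p = 0.121) or 3 (0.146) or control library 2 (0.0933) or 3 (0.108) left out. Auxin efflux carrier component 1a (Pl04G0000344100.v1), of the PIN carriers of the cell membrane, fell by 0.70 (SE 0.20, adjusted p = 0.0493), and kept its call in 1 of the 6 fits that left out a library, that without infested library 1 (adjusted p of 0.0615 to 0.172 in the others).

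Of 7 tested genes of auxin synthesis from tryptophan 2 rose and 0 fell. That is 28.6% called, where 17.1% of all tested genes were called and 9.65% were higher. Tryptophan aminotransferase-related protein 2 (Pl09G0000246700.v1), of the first step, had 5.20, 8.31 and 9.71 CPM in infested leaves, against 1.08, 0.911 and 1.013 CPM in control leaves. Its rise was 2.93 ± 0.31 (adjusted p = 0.000824). YUCCA10 (Pl01G0000354300.v1), a probable monooxygenase of the second step, had 10.9, 11.5 and 12.002 CPM in infested leaves, against 3.48, 2.10 and 2.68 CPM in control leaves. Its rise was 2.04 ± 0.22 (adjusted p = 0.000955). Both genes were well apart between groups and at low levels.

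Auxin conjugation and turnover had 20 tested genes, of which 6 rose and 0 fell (median 0.52). This is 30% of the 20 tested, where 17.1% of all tested genes were called and 9.65% were higher. The search word GH3 also matched 5 beta-glucosidases named BoGH3B, which are not auxin enzymes, and without them 5 of 16 rose. The 3 smallest p-values belonged to IAA-amino acid hydrolases, which free auxin from its amino acid conjugates. In Arabidopsis some of this group also cleave the conjugate of jasmonate and isoleucine. ILR1-like 1 (Pl03G0000064000.v1) had 128, 142 and 190 CPM in infested leaves, against 12.9, 17.9 and 15.1 CPM in control leaves (3.32 ± 0.19, adjusted p = 8.31e-05). ILR1-like 6 (Pl09G0000121600.v1) rose by 2.64 ± 0.21 and ILR1-like 4 (Pl05G0000275900.v1) by 2.02 ± 0.15, and all 6 tested hydrolases had values above 0. Chosen after its values were seen, a gene named after the auxin oxidase DAO (Pl04G0000054800.v1) rose by 1.75 ± 0.14 (adjusted p = 0.000244). It was the only 1 called of the 3 tested genes of that name, whose median was 0.28. Summed over the 5 so named, infested libraries had 191 to 264 CPM and control libraries 94.0 to 222 CPM, which overlapped. Of 7 tested GH3 amido synthetases, also set apart after the values were seen, 1 rose, GH3.1 (Pl02G0000165700.v1), at 3.55 ± 1.26 CPM in infested and 0.955 ± 0.115 CPM in control leaves (SD, n = 3 each). It was no longer called when infested library 2 (adjusted p = 0.0565) or 3 (0.0596) was left out.

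Among 6 tested genes of other auxin names 3 rose and 0 fell. That is 50% called, where 17.1% of all tested genes were called and 9.65% were higher. Of the 3 genes named ARG2, after a mung bean transcript that auxin induces, Pl01G0000359700.v1 rose by 2.86 ± 0.51 (adjusted p = 0.00804) and Pl06G0000223100.v1 by 1.49 ± 0.29 (adjusted p = 0.0120). An auxin-binding protein ABP19a (Pl09G0000320700.v1) averaged 4.89 ± 2.96 CPM in infested and 1.34 ± 0.576 CPM in control leaves (SD, n = 3 each; adjusted p = 0.0491). It kept its call in 1 of the 6 fits that left out a library, that without infested library 2 (adjusted p of 0.067 to 0.138 in the others). The third ARG2 (Pl07G0000249600.v1) had −0.48 ± 0.15 (adjusted p = 0.0567), and was called under DESeq2 (0.0253), upper-quartile factors (0.0396) and library totals (0.0470).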

How the data were processed

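Leaf RNA of both species was sequenced and deposited as raw read counts per gene, 1 table per species and 1 column per library, with gene lengths in bases. Tools listed in the submitters' processing notes are featureCounts, HISAT2 and DESeq2. Their versions and settings, the genome builds, strandedness and the treatment of shared reads are not given there. Coordinates are therefore printed as the tables give them. The counts deposited by the authors are whole numbers with unequal totals. Each species was fitted alone over its whole table with edgeR (version 4.0.16, R 4.3.3): filterByExpr (at least 10 counts, scaled to the median library, in 3 libraries), TMM scaling and the quasi-likelihood F test, infested over control. CPM use TMM-adjusted library sizes. The fit was tested on simulated counts. Members and lists were chosen with earlier results of these data known. The rule for named genes took all called members, the 6 highest of each class per length, the 3 *P. vulgaris* response factors of smallest p, and the 3 called genes of smallest p of each pathway list. Another 16 genes are named outside it, chosen after their values were seen. Some response factors that the rule takes are not reported here, though they enter the fits and class counts. No 2 libraries looked like copies. Alternatives were other scalings, no filter, DESeq2 (version 1.42.0), a robust fit, the replicate block and leaving out each library. Groups of 3 allow no search for outlying libraries.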

Additional observations from a re-analysis of the deposited data

How the results depend on the processing

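Of 804 refits of 58 named genes, 0 turned the direction of a called gene, 67 lost a call and 15 gained one. With 1 library left out, the genes called ran from 1317 (without infested replicate 3) to 3204 in *P. lunatus*, with 1485 without infested replicate 2 and 2066 without control replicate 3 (3170 with all libraries), response factors called ran from 2 (without infested replicate 3 or control replicate 3) to 6 (6 with all), Aux/IAA genes called ran from 2 (without infested replicate 2 or 3) to 5 (4 with all), and SAUR genes called ran from 0 to 1 (2 with all). In *P. vulgaris* the genes called ran from 92 to 172 (189 with all), and were 92, 100, 100 and 122 without infested replicates 1 and 2 and control replicates 2 and 3. SAUR genes called were also 1 under upper-quartile factors, library totals, no filter and the robust fit. With no filter that 1 was neither SAUR76 (adjusted p = 0.0827) nor 10A5 (0.0636). Both were also lost without infested replicate 1 (0.0742 and 0.0652) and without control replicate 3 (0.102 and 0.125), where 1 other SAUR gene was called. DESeq2 called 2 SAUR genes, with SAUR76 not among them (0.0823). DESeq2 called 455 *P. vulgaris* genes. The labels' replicate numbers were not taken as pairs. Deviations of same-numbered libraries correlated at −0.22, 0.05 and −0.18 in *P. lunatus* and at 0.14, 0.09 and 0.21 in *P. vulgaris*, where all 6 libraries correlated best with their own number, a hint from the data only. With the replicate block 1617 *P. lunatus* genes were called, with 2 response factors, 0 SAUR and 3 Aux/IAA genes among them, and 539 *P. vulgaris* genes with 1 response factor (PHAVU_005G134500g, adjusted p = 0.0422). The cause of these shifts was not tested. Response factors had 8 lower and 1 higher under upper-quartile factors and 7 lower and 1 higher under DESeq2 in *P. lunatus*, and the median of all genes stayed within −0.06 to 0.00 under the scalings tried. Library totals without the 20 most counted genes, chosen after seeing the data, gave 6 response factors called. Low counts limit the SAUR class most, with 92 of 107 below the filter, and their cause was not tested.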
